A study of Ganoderma lucidum with 6 samples.

Results

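The genes described here encode proteins of the cytosolic and the mitochondrial ribosome of Ganoderma lucidum, a wood-decaying medicinal mushroom. They were taken from the gene annotation, with no use of expression values: the KOG description (a name for a group of orthologous eukaryotic proteins) had to hold the words "ribosomal protein", or the KEGG entry had to name the ribosome pathway, and 9 rows for kinases and other modifying enzymes were left out. This gave 115 of the 16113 genes in the table. The KOG name holds the word "mitochondrial" for 29 of them, and the other 86 are called cytosolic below. Of the 115 genes, 114 passed the filter on low counts. The gene that did not, GL25530-G, was a cytosolic gene with no read in any library.

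The libraries were made from wild-type mycelia at day 3, 3 with sodium nitrate (NaNO3) and 3 with ammonium sulfate ((NH4)2SO4). The comparison is of the nitrate with the ammonium salt, so the groups also differ in sodium and sulfate. No label names separate cultures for the replicates of a salt, and the spread behind the p-values may therefore be technical. Whether the material was mycelium was not checked against marker genes.

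Ribosomes read messenger RNA and join amino acids into protein. The cytosolic ribosome of a fungus is built from a small (40S) and a large (60S) subunit and holds a flexible stalk on the large subunit that calls in the elongation factors. Mitochondria keep a second, bacterial-type ribosome that makes the few proteins encoded in mitochondrial DNA, and nearly all of its proteins are encoded in the nucleus and imported. In yeasts, genes for cytosolic ribosomal proteins are among the most strongly expressed in growing cells and are controlled together by nutrient signalling. Bacterial ribosomal proteins carry S and L numbers too, so that S5 or L1 can name an organellar protein.

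Total counts ran from 19979528 to 27604895 per library. Across all 11993 genes tested with edgeR's quasi-likelihood test, 1874 were called at a Benjamini-Hochberg adjusted p under 0.05, or 15.6% (7.5% higher and 8.13% lower on nitrate), and the median log2 fold change was 0.01. Libraries of the same group differed along gene length. Among the 3998 shortest of the tested genes, the median log2 deviation from the group mean was -0.17 in nitrate library 1 and 0.20 in ammonium library 1. Among the 3998 longest the same medians were 0.12 in nitrate library 1 and -0.13 in ammonium library 1. Length here is inferred from the deposited counts and FPKM. Most ribosomal protein genes are short, with 70 of 85 tested cytosolic genes and 22 of 29 mitochondrial genes among those 3998 shortest, and their values moved with these libraries. Counts of called ribosomal protein genes are given below also with both of these libraries left out, in a fit that called 40.6% of all tested genes. It held only libraries 2 and 3 of each group and was chosen after the data were seen. Nitrate library 1 was the lowest nitrate library for 78 of 85 tested cytosolic genes, and ammonium library 1 the highest ammonium library for 65. Leaving both out therefore moves most cytosolic fold changes upwards by the choice itself, and calls in that fit only describe this choice. Values of single genes without both libraries are given for some of the genes described whose call changed.

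Few ribosomal protein genes differed between the nitrogen salts. Of 114 tested ribosomal protein genes, 0 were higher and 2 were lower on nitrate at an adjusted p under 0.05 in edgeR's test, or 1.75%, against 15.6% of all tested genes. At an unadjusted p under 0.05 there were 1 higher and 12 lower, against 16% higher and 15.9% lower among all tested genes. DESeq2 called 1 higher and 7 lower, where it called 10.7% of all genes higher and 10.8% lower. Limma-trend on log2(FPKM + 1) called 0 higher and 2 lower, where it called 14.2% of all genes. The median log2 fold change, nitrate over ammonium, was -0.13, and 85 of the 114 values lay below 0. For 104 genes (91.2%) the 95% interval of the fold change lay within a 2-fold difference in either direction, against 49.0% of all tested genes. Replicates 2 and 3 of each group decided both calls: without nitrate library 2 or 3, or without ammonium library 2 or 3, 0 ribosomal protein genes passed, although these 4 fits called fewer of all genes too (9.36%, 5.79%, 6.55% and 5.41% in the order given). Without nitrate library 1, 3 ribosomal protein genes were lower, against 7.2% of all genes, and without ammonium library 1, 4 were lower, against 8.57%.

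**Figure D1:**
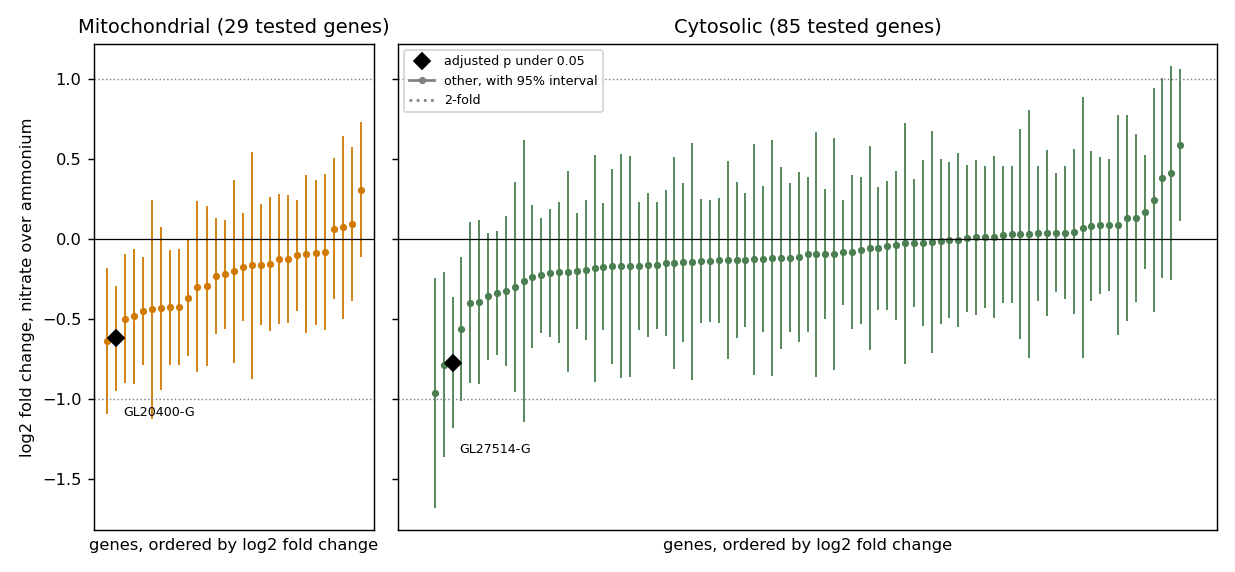
Log2 fold change, nitrate over ammonium (vertical axis), of each tested ribosomal protein gene with its 95% interval, mitochondrial genes on the left and cytosolic genes on the right, each ordered by fold change along the horizontal axis. The 2 genes past an adjusted p of 0.05 are black diamonds at -0.62 and -0.77, and the intervals of 104 of 114 genes lie between the dotted lines that mark a 2-fold difference.

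Cytosolic ribosomal protein genes were among the most strongly expressed genes on both salts. Their median over genes of the mean FPKM across 6 libraries was 641, against 78.7 for mitochondrial genes and 12.6 for all tested genes. Of the 200 genes with the highest mean FPKM, 35 were cytosolic and 0 were mitochondrial ribosomal protein genes. The highest mitochondrial level was 237 FPKM, of S19 (GL15484-G). Among cytosolic genes the strongest was S25 (GL26549-G), a small subunit protein needed in yeast for translation from some internal entry sites. It had 1420, 1988 and 2294 FPKM in nitrate libraries 1 to 3, and 2402, 1841 and 1789 FPKM in ammonium libraries 1 to 3. The groups overlapped, and the lowest and the highest values were both in libraries numbered 1.

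Levels alone do not show which genes are cytosolic. By a KEGG number that stands for bacterial and organellar proteins, or by 50S in the name, 4 genes of the cytosolic class are of the type found in organelles: S5 (GL27514-G), S7 (GL23695-G), 50S L1 (GL29745-G) and GL15713-G, which has no KOG name. This was noticed after values had been seen. Their mean FPKM ran from 43.9 for GL27514-G to 196 for GL15713-G, all below the highest mitochondrial gene. Of the other 81 tested cytosolic genes, 73 were above it. The 8 at or below it included 2 ubiquitin fusion genes (16.5 FPKM for GL18245-G and 189 FPKM for GL22663-G). Also among them were the L30 isolog GL24663-G (81.2 FPKM) and a protein related to S8E (GL25238-G, 91.5 FPKM). The rest had plain cytosolic names: 40S S27 (GL29895-G, 131 FPKM), 60S L14/L17/L23 (GL20492-G, 191 FPKM), 60S L44 (GL24060-G, 199 FPKM) and 40S S21 (GL24825-G, 208 FPKM). The class assigned by name was kept for the counts. With the 4 genes moved to the mitochondrial class, the cytosolic count of genes called lower was 0 and the mitochondrial count was 2.

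Summed over its genes, the cytosolic class held 2.88%, 3.97% and 4.37% of all counts in nitrate libraries 1 to 3, and 4.73%, 3.68% and 3.40% in ammonium libraries 1 to 3. The mitochondrial class held 0.134%, 0.167% and 0.173% in the nitrate libraries and 0.213%, 0.174% and 0.156% in the ammonium libraries. For both classes the groups overlapped, nitrate library 1 was the lowest of all 6 libraries and ammonium library 1 the highest. The mean cytosolic share was 3.74% ± 0.771 on nitrate and 3.94% ± 0.702 on ammonium (SD, n = 3 each). The mean mitochondrial share was 0.158% ± 0.0209 on nitrate and 0.181% ± 0.0291 on ammonium (SD, n = 3 each). The cytosolic difference was smaller than the SD of either group, and the mitochondrial difference was larger than the SD on nitrate and smaller than the SD on ammonium. Mitochondrial counts as a percent of cytosolic counts were 4.66, 4.20 and 3.96 on nitrate, and 4.51, 4.74 and 4.59 on ammonium, with nitrate library 1 inside the ammonium range. In such bulk samples fewer cells of a kind and less RNA per cell cannot be told apart.

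**Figure D2:**
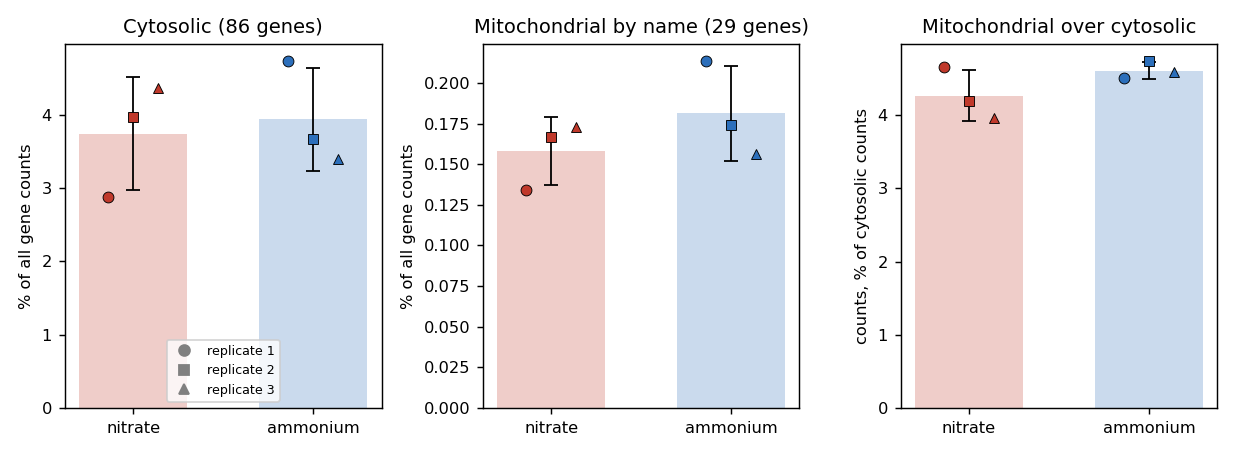
Share of all gene counts held by the cytosolic and the mitochondrial ribosomal protein genes, in percent, and the mitochondrial counts as a percent of the cytosolic counts, with nitrate left of ammonium. Points are libraries, bars are means and error bars are SD (n = 3 each); nitrate library 1 (2.88%) and ammonium library 1 (4.73%) are the extremes of the cytosolic share.

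The small subunit of the cytosolic ribosome was represented by 33 tested genes. Of these, 0 were called higher and 1 lower on nitrate, against 7.5% and 8.13% of all tested genes. With both libraries numbered 1 left out, 5 of the 33 were higher and 2 were lower, against 19.6% and 21% of all tested genes. The median log2 fold change with all libraries was -0.13. The gene called lower was S5 (GL27514-G), of the bacterial type by its KEGG number. In bacteria S5 lies in the small subunit near the path of the messenger RNA and affects the accuracy of decoding. Normalised counts per 1000000 (CPM) of GL27514-G were 23.3, 29.7 and 30.7 in nitrate libraries, and 52.9, 48.5 and 41.7 in ammonium libraries. The groups did not overlap, and nitrate library 1 was lowest and ammonium library 1 highest. The log2 fold change was -0.77 ± 0.18 (SE; edgeR quasi-likelihood, Benjamini-Hochberg adjusted p = 0.0251). Without nitrate library 2 or 3 or ammonium library 2 or 3 the call was lost, with adjusted p up to 0.0874, while the fold change stayed between -0.87 and -0.66 over the 6 fits with 1 library left out.

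Another 2 small subunit genes had an unadjusted p under 0.05 in edgeR's test of all 6 libraries without passing the adjusted threshold; they were chosen for this p after their values were seen. S27 (GL29895-G), a zinc-binding protein, had 49.1, 53.9 and 51.4 CPM on nitrate, and 63.4, 78.0 and 125 CPM on ammonium, with no overlap and ammonium library 3 far above the other libraries. Its log2 fold change was -0.79 ± 0.25 (SE; edgeR adjusted p = 0.0709), and its gene model overlaps a neighbouring one, so reads may be shared. It passed in DESeq2 (adjusted p = 0.0276), in edgeR's test without ammonium library 1 (log2 fold change -0.99, adjusted p = 0.0234) and without both libraries numbered 1 (-0.95, adjusted p = 0.00565). S12 (GL25114-G), part of the beak of the small subunit, had 207, 243 and 265 CPM on nitrate, and 420, 330 and 308 CPM on ammonium. These groups did not overlap either, and the log2 fold change was -0.56 ± 0.20 (SE; edgeR adjusted p = 0.0898). It passed in DESeq2 (adjusted p = 0.0299) and in edgeR's test with the length correction described below (-0.65, adjusted p = 0.0150).

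The most strongly expressed small subunit genes showed no such separation. S25 (GL26549-G) had a log2 fold change of -0.10 with a 95% interval from -0.58 to 0.39 (edgeR adjusted p = 0.795). S26 (GL24058-G), which lies at the exit of the messenger RNA channel, had 560, 695 and 707 CPM on nitrate, and 883, 742 and 685 CPM on ammonium. Its groups overlapped, and the interval of its log2 fold change ran from -0.68 to 0.21 (edgeR adjusted p = 0.444). S3A (GL26664-G) had 851, 1085 and 1160 CPM on nitrate, and 1259, 1147 and 1032 CPM on ammonium, with an interval from -0.60 to 0.30 (edgeR adjusted p = 0.646). In all 3 genes nitrate library 1 was the lowest of the 6 libraries and ammonium library 1 the highest.

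The large subunit of the cytosolic ribosome held 43 tested genes apart from the stalk and the ubiquitin fusions, and 0 were called in either direction by edgeR, with 0 at an unadjusted p under 0.05. DESeq2 called 0 of them as well. With both libraries numbered 1 left out, edgeR called 7 of the 43 higher (16.3%) and 0 lower, against 19.6% and 21% of all tested genes, and their median log2 fold change was 0.20. The 7 included the genes named L35A/L37 (GL18772-G), L24 (GL22280-G), L35 (GL31430-G), L30 (GL21864-G) and L30 isolog (GL24663-G). The rest were 1 of the pair named L14/L17/L23 (GL20492-G) and 1 of the pair named L37 (GL21657-G). With all 6 libraries the log2 fold changes ran from -0.36 to 0.38 with a median of -0.09. For 42 of the 43 the 95% interval lay within a 2-fold difference. L18 (GL18165-G), the strongest of them per length, had 682, 776 and 735 CPM on nitrate, and 767, 847 and 799 CPM on ammonium. The groups overlapped, and the log2 fold change was -0.14 with an interval from -0.52 to 0.25 (edgeR adjusted p = 0.621). In 3 large subunit genes the groups did not overlap, all lower on nitrate, or 6.98%, against 18.6% of all tested genes. They were L22 (GL23770-G), L5 (GL31426-G), which carries the 5S ribosomal RNA, and the 15.5 kD protein SNU13 (GL24705-G). SNU13 is counted here only by its KOG name, which also describes it as involved in splicing. L22 had 393, 450 and 440 CPM on nitrate, and 522, 605 and 517 CPM on ammonium, a log2 fold change of -0.36 ± 0.17 (SE; edgeR adjusted p = 0.196).

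The stalk proteins P0, P1 and P2 bring translation factors to the ribosome, with P0 as the base that binds pairs of P1 and P2. None of the 3 genes passed the test in edgeR or in DESeq2, and none had an unadjusted p under 0.05. P0 (GL26135-G) had 875, 720 and 644 CPM on nitrate, and 774, 1104 and 1074 CPM on ammonium. P1 (GL18490-G) had 160, 245 and 311 CPM on nitrate, and 360, 238 and 209 CPM on ammonium. P2 (GL21667-G) had 252, 430 and 545 CPM on nitrate, and 758, 380 and 337 CPM on ammonium. All 3 groups of values overlapped. Nitrate library 1 was the highest nitrate library for P0 and the lowest for P1 and P2. Ammonium library 1 was the lowest ammonium library for P0 and the highest for P1 and P2. Within each group P1 and P2 thus had the same order of libraries, and P0 did not vary together with them. The log2 fold changes were -0.40 for P0 (95% interval -0.90 to 0.10, edgeR adjusted p = 0.251), -0.17 for P1 (-0.86 to 0.52, edgeR adjusted p = 0.742) and -0.27 for P2 (-1.15 to 0.61, edgeR adjusted p = 0.679). With nitrate library 1 and ammonium library 1 both left out, P0 alone of the 3 passed, at -0.68 (edgeR adjusted p = 0.00509), while the log2 fold changes of P1 and P2 were then 0.32 and 0.44.

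S27a and L40 are made as fusions to ubiquitin, which is cut off as the proteins join the ribosome, and such genes also feed the cell's ubiquitin pool. The 5 genes named as fusions showed the widest range of fold changes within the cytosolic class, from -0.96 to 0.59. Ubiquitin parts are nearly identical between genes, so the authors' counting could split reads among them and the values are uncertain. Of the genes named S27a fusions, GL24930-G had 372, 569 and 653 CPM on nitrate, and 750, 483 and 328 CPM on ammonium. Its log2 fold change was 0.03 ± 0.34 (SE; edgeR adjusted p = 0.962). Leaving out 1 library moved that value between -0.22 and 0.38, and without both libraries numbered 1 the gene was called higher (0.59, edgeR adjusted p = 0.0294). GL29693-G had 67.1, 47.7 and 36.0 CPM on nitrate, and 61.5, 111 and 122 CPM on ammonium, a log2 fold change of -0.96 ± 0.31 (SE; edgeR adjusted p = 0.0747). The order of libraries within each group was opposite in these 2 genes, and groups overlapped in both. GL29693-G has the shortest inferred length of all tested ribosomal protein genes, 190 bases, against 607 bases for GL24930-G. Whether so short a gene model holds a whole fusion was not checked beyond the KOG name. GL29693-G passed the test without nitrate library 1 (log2 fold change -1.23, edgeR adjusted p = 0.0341) or without ammonium library 1 (-1.23, edgeR adjusted p = 0.0178), and without both (-1.47).

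Of the genes named L40 fusions, GL22663-G had 356, 253 and 278 CPM on nitrate, and 173, 232 and 186 CPM on ammonium. It was the only ribosomal protein gene with all nitrate values above all ammonium values, against 19.4% of all tested genes. Its log2 fold change was 0.59 ± 0.21 (SE; edgeR adjusted p = 0.0932). DESeq2 called this gene (adjusted p = 0.0484). GL18245-G had 34.7, 22.0 and 25.5 CPM on nitrate, and 13.4, 28.0 and 20.5 CPM on ammonium, with overlap and a log2 fold change of 0.41 (edgeR adjusted p = 0.372). GL25546-G, the strongest of them by FPKM, had 234, 203 and 167 CPM on nitrate, and 162, 227 and 264 CPM on ammonium. Its groups overlapped, with a log2 fold change of -0.12 (edgeR adjusted p = 0.776). Inferred lengths were 1297 bases for GL22663-G, 1448 bases for GL18245-G and 509 bases for GL25546-G. Whether GL22663-G and GL18245-G encode an L40 fusion was not checked beyond the KOG name.

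The names L37, L14/L17/L23, S7 and L10A were each carried by a pair of cytosolic genes, and none of these genes was called with all 6 libraries. The pair named L37 had log2 fold changes of 0.09 (GL21657-G) and -0.13 (GL21820-G). The pair named L14/L17/L23 had -0.10 (GL20492-G) and -0.21 (GL22149-G). With both libraries numbered 1 left out, GL21657-G was called at 0.60 (edgeR adjusted p = 0.00960) and GL20492-G at 0.54 (edgeR adjusted p = 0.0122). Under the name S7, GL25761-G had a mean of 616 FPKM on nitrate and 605 FPKM on ammonium, and GL23695-G, of the organellar type, had 64.9 FPKM on nitrate and 75.5 FPKM on ammonium. L10A was carried by GL28004-G, with 446 FPKM on nitrate and 483 FPKM on ammonium, and by GL25530-G, with 0 counts in all 6 libraries. A count of 0 allows up to 3 counts, or 0.109 to 0.150 CPM of a library's total, which covers counting error only.

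Values of mitochondrial ribosomal protein genes lay mostly below 0, with a single gene past the test. Of the 29, 0 were higher and 1 was lower at an adjusted p under 0.05 in edgeR's test, against 7.5% and 8.13% of all tested genes. At an unadjusted p under 0.05 there were 0 higher and 8 lower (27.6%, against 15.9% of all tested genes). In DESeq2 3 of the 29 were lower, where 10.8% of all genes were called lower. With both libraries numbered 1 left out 2 were higher and 3 lower, against 19.6% and 21% of all tested genes. The median log2 fold change was -0.20, the range ran from -0.64 to 0.31, and 25 of the 29 values lay below 0. In 10 genes (34.5%) all nitrate values lay below all ammonium values, against 18.6% of all tested genes, and in 0 genes above. The cytosolic class, by the same measures, had 4 genes lower and 1 higher at an unadjusted p under 0.05, a median of -0.10, 60 of 85 values below 0, and 6 genes without overlap lower on nitrate. The difference between the classes was not tested, since genes of a class share their libraries.

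The cytosolic median changed sign with single libraries and the mitochondrial median did not. Without nitrate library 1 the cytosolic median was 0.05, with 34 of 85 values below 0, and the mitochondrial median was -0.17, with 22 of 29 below 0. Without ammonium library 1 the cytosolic median was 0.05, with 36 of 85 below 0, and the mitochondrial median was -0.13, with 20 of 29 below 0. Without both libraries the cytosolic median was 0.19 and the mitochondrial median was -0.06. Over the 6 fits with 1 library left out the mitochondrial median ran from -0.33 to -0.13. A correction for gene length within each library gave medians of -0.19 for cytosolic and -0.32 for mitochondrial genes. The median of all tested genes lay between -0.01 and 0.02 in all of these fits.

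**Figure D3:**
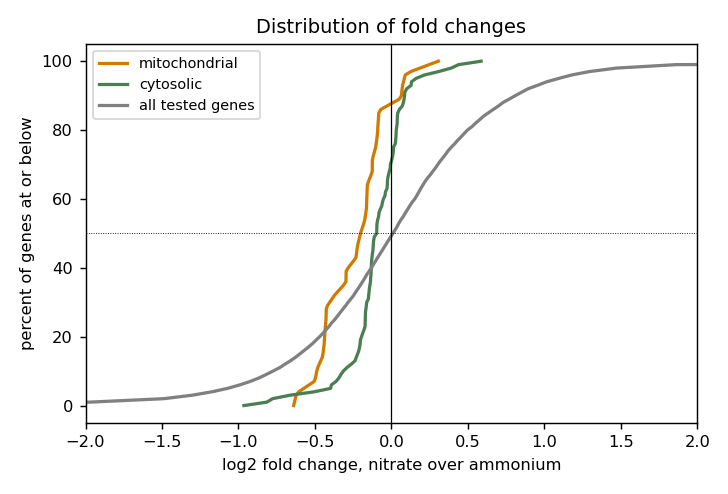
Distribution of log2 fold changes, nitrate over ammonium (horizontal axis, cropped at -2 and 2), as the percent of genes at or below each value (vertical axis), for 29 mitochondrial ribosomal protein genes, 85 cytosolic ones and all 11993 tested genes. The medians, where the curves cross the dotted line, are -0.20, -0.10 and 0.01, and both ribosomal curves are steeper than that of all genes.

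Among the 17 mitochondrial large subunit genes, 1 was called lower on nitrate, against 8.13% of all tested genes. Of their values 15 lay below 0, and the median log2 fold change was -0.30. The gene called lower was L19 (GL20400-G), whose bacterial counterpart lies where the subunits meet. It had 42.8, 45.9 and 41.3 CPM on nitrate, and 69.9, 68.1 and 61.9 CPM on ammonium. The groups did not overlap, and the highest nitrate value was well below the lowest ammonium value. The log2 fold change was -0.62 ± 0.14 (SE; edgeR quasi-likelihood, Benjamini-Hochberg adjusted p = 0.0255). Without nitrate library 2 or 3 or ammonium library 2 or 3 the call was lost, with adjusted p up to 0.107, and the fold change stayed between -0.68 and -0.59 over the 6 fits.

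The other large subunit genes at an unadjusted p under 0.05, again chosen for that p after values were seen, were L34, L6, L5/L7, L4 and L2, all with lower values on nitrate and no overlap. L34 (GL28760-G), the weakest mitochondrial gene with a mean of 18.8 FPKM, had 5.32, 7.59 and 6.38 CPM on nitrate, and 10.1, 10.0 and 9.94 CPM on ammonium, a log2 fold change of -0.64 ± 0.20 (SE; edgeR adjusted p = 0.0643), and passed in DESeq2 (adjusted p = 0.0283). L6 (GL23841-G) had 43.7, 60.6 and 57.8 CPM on nitrate, and 83.9, 73.1 and 72.3 CPM on ammonium, a log2 fold change of -0.50 (edgeR adjusted p = 0.0922). In bacteria L6 and L34 both bind the large ribosomal RNA. L5/L7 (GL16880-G) had 53.6, 53.0 and 46.6 CPM on nitrate, and 60.1, 76.0 and 69.9 CPM on ammonium (-0.43, edgeR adjusted p = 0.105), and it passed with both libraries numbered 1 left out (-0.55, edgeR adjusted p = 0.0121). L4 (GL29977-G), whose bacterial counterpart lines the exit tunnel, had 54.8, 64.1 and 66.6 CPM on nitrate, and 92.6, 78.2 and 78.5 CPM on ammonium (-0.43, edgeR adjusted p = 0.108). L2 (GL30375-G), whose bacterial counterpart lies near the site of peptide bond formation, had 110, 111 and 101 CPM on nitrate, and 147, 147 and 121 CPM on ammonium (-0.37, edgeR adjusted p = 0.148). In these 5 genes the library that was lowest on nitrate was not always the same: it was library 1 for L34, L6 and L4, and library 3 for L5/L7 and L2.

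Among the 10 mitochondrial small subunit genes, 0 were called by edgeR. At an unadjusted p under 0.05, 2 were lower and 0 higher, against 15.9% and 16% of all tested genes. DESeq2 called 1 lower, S10 (GL19314-G), where it called 10.8% of all genes lower. The median log2 fold change was -0.17. S10 had 26.5, 31.0 and 31.2 CPM on nitrate, and 39.6, 40.1 and 41.3 CPM on ammonium, with no overlap and a log2 fold change of -0.45 ± 0.15 (SE; edgeR adjusted p = 0.0768). S9 (GL25248-G), whose bacterial counterpart reaches towards the transfer RNA, had 63.7, 56.2 and 49.6 CPM on nitrate, and 68.3, 94.8 and 74.2 CPM on ammonium, without overlap (-0.49, edgeR adjusted p = 0.113). It passed with both libraries numbered 1 left out (-0.68, edgeR adjusted p = 0.00647). The gene with the highest fold change in the class, S27 (GL23807-G), had 33.2, 37.1 and 41.1 CPM on nitrate, and 35.4, 29.9 and 24.8 CPM on ammonium. Its groups overlapped, and its log2 fold change was 0.31 ± 0.18 (SE; edgeR adjusted p = 0.292). It too passed with both of those libraries left out (0.52, edgeR adjusted p = 0.0260).

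The 4 strongest mitochondrial genes by FPKM were not called. S19 (GL15484-G) had 56.8, 73.3 and 75.4 CPM on nitrate, and 92.5, 64.3 and 60.7 CPM on ammonium (log2 fold change -0.08, edgeR adjusted p = 0.831). S16 (GL30298-G) had 110, 108 and 107 CPM on nitrate, and 132, 120 and 114 CPM on ammonium. Its values did not overlap between the salts, but the log2 fold change was -0.18 with a 95% interval from -0.51 to 0.16 (edgeR adjusted p = 0.449). L12 (GL26579-G), the stalk protein of bacterial-type ribosomes, had 89.1, 104 and 106 CPM on nitrate, and 116, 122 and 96.8 CPM on ammonium (-0.16, edgeR adjusted p = 0.546). S17 (GL25315-G), which binds ribosomal RNA in bacteria, had 30.7, 40.9 and 46.2 CPM on nitrate, and 51.5, 37.0 and 37.1 CPM on ammonium (-0.09, edgeR adjusted p = 0.809). The groups overlapped for S19, L12 and S17.

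**Figure D4:**
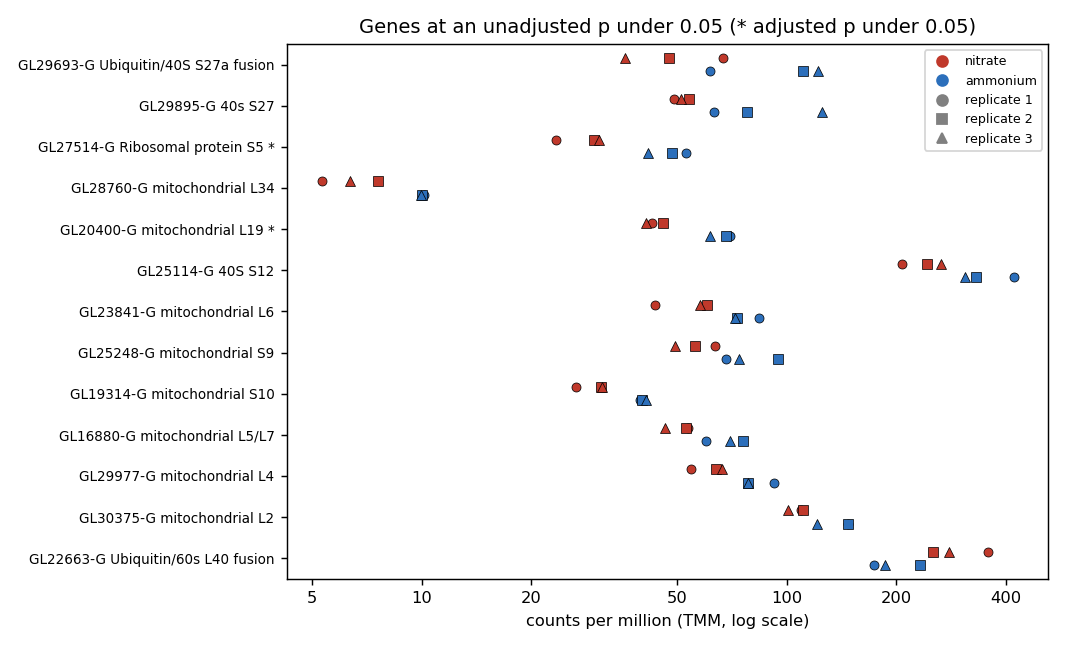
Normalised counts per 1000000 (horizontal axis, log scale) in every library for the 13 ribosomal protein genes at an unadjusted p under 0.05, nitrate in the upper row of each gene and ammonium in the lower. Symbols mark the replicate number and an asterisk the 2 genes past an adjusted p of 0.05. GL22663-G is the gene with all nitrate points above the ammonium points, and the groups of GL29693-G overlap.

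Cytosolic ribosomal protein genes moved together between libraries of the same group. Nitrate library 1 was the lowest nitrate library for 78 of the 85 tested genes (91.8%), against 44.0% of all tested genes, and nitrate library 3 was the highest for 69. Ammonium library 1 was the highest ammonium library for 65 (76.5%, against 41.7% of all tested genes), and ammonium library 3 was the lowest for 75 (88.2%, against 31.3%). The median log2 deviation from the group mean over the 85 genes was -0.27 in nitrate library 1 and 0.18 in ammonium library 1. These shifts are larger than the median difference between the salts. Mitochondrial genes varied in the same sense, with nitrate library 1 lowest for 21 of 29, ammonium library 1 highest for 20 and ammonium library 3 lowest for 22.

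The deviations of cytosolic genes were larger among short genes. Over the 70 cytosolic genes among the 3998 shortest of all genes, the median deviation was -0.29 in nitrate library 1 and 0.23 in ammonium library 1, and over the other 15 it was -0.14 in nitrate library 1 and 0.07 in ammonium library 1. Among mitochondrial genes this was less uniform: in ammonium library 3 the median deviation was -0.18 over the 22 short genes and -0.24 over the 6 of middle length. Over all 6 libraries the median log2 fold change was 0.07 among the 3998 shortest of all tested genes and -0.08 among the 3998 longest. For the 70 short cytosolic genes it was -0.12, and for the other 15 it was -0.03. The 22 short mitochondrial genes had a median of -0.19, and the 6 of middle length had -0.40. Beyond these medians, the part of length in the pooled fold changes was examined only through the length correction. Under that correction 0 ribosomal protein genes were higher and 8 were lower, against 8.8% and 9.21% of all tested genes. They were S5, S12 and SNU13 among the cytosolic genes, and L34, L19, L6, S10 and L4 among the mitochondrial genes. With nitrate library 1 and ammonium library 1 left out instead, 15 were higher and 7 were lower, in a fit that called 19.6% of all tested genes higher and 21% lower. Of the 15 higher genes 13 were cytosolic, with the largest fold change for L30 (GL21864-G, log2 fold change 0.81, edgeR adjusted p = 0.00291). Both L19 and S5 were lower in both of these fits.

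**Figure D5:**
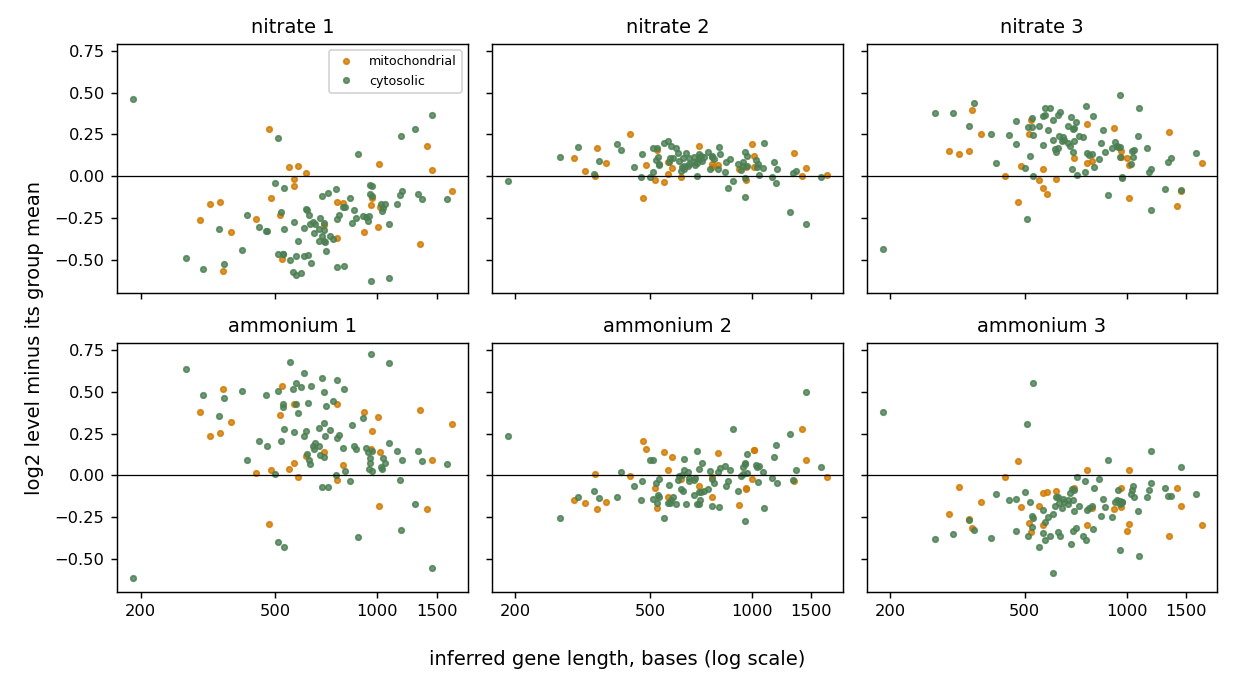
Log2 level minus the mean of its own group (vertical axis) against the inferred gene length in bases (horizontal axis, log scale), for each tested ribosomal protein gene, 1 panel per library with nitrate libraries in the upper row and ammonium libraries in the lower. Most cytosolic genes lie below 0 in nitrate library 1 (median -0.27) and above 0 in ammonium library 1 (median 0.18).

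Other genes of translation and of ribosome assembly were counted from lists of KOG names and KEGG entries. Among 37 tested genes for translation initiation, 3 were higher (8.11%) and 0 lower on nitrate, against 7.5% and 8.13% of all tested genes. They were an eIF-4G, a scaffold that joins messenger RNA to the ribosome (GL21587-G, log2 fold change 1.54, edgeR adjusted p = 0.00821), the epsilon subunit of eIF-2B, which recharges the initiator factor with GTP (GL24681-G, 0.65, edgeR adjusted p = 0.0297), and a gene named eIF-2C (GL15827-G, 1.07, edgeR adjusted p = 0.0122), a name used for Argonaute proteins of RNA silencing. This eIF-4G gene was weak, with 3.43 FPKM on nitrate and 1.15 FPKM on ammonium. A stronger gene of the same name (GL21487-G), with 111 FPKM on nitrate and 135 FPKM on ammonium, was not called (-0.28, edgeR adjusted p = 0.628). The other genes named eIF-2C were not called either, with log2 fold changes of -0.52 (GL31293-G), -0.18 (GL20838-G) and -0.01 (GL21067-G). Of 19 elongation and release factor genes 0 were called by edgeR, with 0 higher and 1 lower at an unadjusted p under 0.05. That gene was a mitochondrial elongation factor (GL31201-G), with 52.2, 54.3 and 45.5 CPM on nitrate, and 67.4, 70.7 and 69.4 CPM on ammonium, a log2 fold change of -0.45 (edgeR adjusted p = 0.0737). It is also among the 7 mitochondrial translation factors, of which 0 were called.

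Of 96 tested genes for making ribosomes, 4 were higher and 2 lower, against 7.5% and 8.13% of all tested genes. Their median log2 fold change was 0.14, with 66 values above 0 and 30 below. The higher ones were an AAA+-type ATPase placed here by its KEGG entry (GL27956-G, log2 fold change 1.35, edgeR adjusted p = 0.00668), the 60S assembly protein RPF1 (GL21805-G, 0.67, edgeR adjusted p = 0.0283), the nucleolar protein NOP52/RRP1 (GL29484-G, 0.64, edgeR adjusted p = 0.0324) and an exonuclease (GL31422-G, 0.62, edgeR adjusted p = 0.0338). Lower were a protein needed for 18S ribosomal RNA maturation (GL26533-G, -0.85, edgeR adjusted p = 0.0180) and a subunit of the RNA-cutting enzymes RNase P and MRP (GL23661-G, -0.71, edgeR adjusted p = 0.0410). Of 19 genes of RNA polymerases I and III, which transcribe ribosomal and transfer RNA, 1 was higher, the 49 kDa subunit of polymerase I (GL21424-G, 0.57, edgeR adjusted p = 0.0393). Of the 9 left-out enzymes 1 was higher, a ribosomal protein S6 kinase or relative (GL19461-G, 0.73, edgeR adjusted p = 0.0270). The eIF-4G gene GL21587-G and the AAA+-type ATPase kept their calls in all 6 fits with 1 library left out. Each of the others called in these lists lost its call without at least 2 of the libraries, nitrate library 3 and ammonium library 2 among them in every case. RPF1, NOP52/RRP1, the exonuclease, eIF-2B epsilon and the S6 kinase gene also lost it without nitrate library 2 or ammonium library 3, and the gene for 18S maturation without ammonium library 3. The exonuclease lost it without nitrate library 1 as well, and eIF-2B epsilon and the S6 kinase gene without ammonium library 1. The RNase P and MRP subunit and the polymerase I subunit lost it in all 6 fits.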

How the data were processed

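RNA sequencing of 6 mycelium samples was deposited as 1 table with raw counts, TPM and FPKM per gene, per the file headers. The authors' counts are whole numbers. The TPM and FPKM values were computed by the authors before deposit. The aligner, counter, genome build and use of strand were not given in the sources used here. No reference sequence was used.

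Counts were tested with edgeR 4.0.16 in R 4.3.3 (quasi-likelihood, robust, TMM, filterByExpr, no block, Benjamini-Hochberg over 11993 genes, threshold 0.05). Positive log2 fold changes mean higher on nitrate; CPM are TMM-scaled, and standard errors come from the F statistic. There were 4 residual degrees of freedom, and the biological coefficient of variation was 0.248. Levels are FPKM as deposited, and TPM served only for shares. Relative gene length was inferred from counts and FPKM.

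Members and lists were chosen with earlier results of these data known. Named were called genes, the 4 strongest per class, stalk and ubiquitin fusion genes and the S27a pair; others were chosen after their values were seen. Alternatives used RLE or total-count scaling, TMM without these genes, other filters, DESeq2 1.42.0, limma 3.58.1 on log2(FPKM + 1) and log2(FPKM + 0.1) for genes of at least 1 FPKM in 3 libraries, a replicate block, a 2-fold threshold and fits without each library in turn. A length offset (lowess, span 0.3), leaving out both libraries numbered 1, and moving organellar-type genes were added after the data were seen. The steps were tested on simulated data.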

Additional observations from a re-analysis of the deposited data

How the results depend on the processing

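Of 306 comparisons of the 18 named genes with an alternative, 289 kept their state as called or not called. Another 10 lost and 7 gained a call, and 0 changed sign while called. Direction was not kept by all uncalled genes. With 1 library left out, the log2 fold change ran from -0.22 to 0.38 for GL24930-G and from -0.53 to 0.18 for GL21667-G. With 4 residual degrees of freedom, differences well under 2-fold were often not detectable. RLE and total-count scaling, TMM without the ribosomal protein genes, both filters and both limma fits gave 0 ribosomal protein genes higher and 2 lower. Leaving out 1 library gave 0 higher and 0 to 4 lower (cytosolic 0 to 3, mitochondrial 0 to 1), and for all genes 273 to 910 higher and 382 to 1036 lower with medians from -0.0054 to 0.0150. The related translation lists together had 9 higher and 2 lower, and 2 to 7 higher and 0 to 3 lower with 1 library left out. DESeq2 gave 1 higher (cytosolic) and 7 lower (cytosolic 4, mitochondrial 3), and 14 and 6 in the related lists. Total-count scaling and limma gave 1 lower in those lists, and the median of all genes was 0.0227 under total counts. A 2-fold threshold gave 0 ribosomal protein genes, 532 higher and 564 lower of all genes, and 3 and 0 in the related lists. Without both libraries numbered 1, 15 were higher (cytosolic 13, mitochondrial 2) and 7 lower (cytosolic 4, mitochondrial 3), the cytosolic median was 0.19, and all genes had 2364 higher and 2534 lower, the related lists 36 and 29. The length offset gave 8 lower (cytosolic 3, mitochondrial 5). Moving the organellar-type genes gave 0 cytosolic and 2 mitochondrial genes lower. Summed TPM gave cytosolic shares of 6.41% on nitrate and 6.75% on ammonium, and mitochondrial shares of 0.284% on nitrate and 0.320% on ammonium. The cause of these differences was not tested.

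Deviations of same-numbered libraries from their group means correlated at -0.66, -0.35 and -0.46 across genes. All genes share the same 6 libraries, so these values cannot decide whether same-numbered libraries were prepared together. With the replicate number as a block, 0 ribosomal protein genes were lower (cytosolic 0, mitochondrial 0), all genes had 85 higher and 140 lower, and the related lists 0 and 0. In that fit the log2 fold changes were -0.78 for GL27514-G and -0.62 for GL20400-G.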

Other observations

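Ribosomal protein genes stood next to each other on the scaffolds in 5 pairs, and all 5 pairs were divergent, with the genes pointing away from each other and 100 to 319 bases between the gene models. Among all 16031 neighbouring pairs of gene models, 25.6% were divergent and 6.66% were divergent with under 500 bases between them. The 115 genes lay on 29 scaffolds, with 24 of them on scaffold 1. On scaffold 1, S15/S22 (GL30398-G) and S17 (GL30395-G) were 125 bases apart, with log2 fold changes of 0.24 and 0.08, nitrate over ammonium. L21 (GL30379-G) and S4 (GL30112-G) were 319 bases apart, with -0.12 and -0.15. S16 (GL29407-G) and the mitochondrial L4 (GL29977-G) were 109 bases apart and join both ribosomes in 1 pair, with -0.03 and -0.43. On scaffold 2, S13 (GL22454-G) and S6 (GL22318-G) were 100 bases apart, both at -0.16. On scaffold 16, the stalk protein P2 (GL21667-G) and S15 (GL18716-G) were 169 bases apart, with -0.27 and -0.04. None of these 10 genes was called by edgeR over all 6 libraries, and GL29977-G was 1 of the 12 ribosomal protein genes lower at an unadjusted p under 0.05. With both libraries numbered 1 left out, edgeR called GL30398-G (0.76, adjusted p = 0.00486) and GL29407-G (0.54, adjusted p = 0.0223) higher. The genome build behind these positions is not given in the sources used here.

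The annotation of a few members was not clear. GL20175-G is named S2 of the small subunit by its KOG entry, but its KEGG number stands for the large subunit protein L12 in that database. GL24663-G, an L30 isolog by name, and GL22280-G, named L24, share a KEGG number. GL24663-G had a mean level of 81.2 FPKM, and its gene model overlaps another, as do those of 9 ribosomal protein genes in all.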
